A study of Mus musculus with 24 samples.

Results

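Retinoic acid is a small lipid signal made from vitamin A, and 9 genes that make it, break it down, bind it or respond to it as receptors were followed in sorted dermal papilla (DP) cells of mouse skin. The genes were taken by symbol from the 25755 genes listed for every library and all 9 were found: the retinaldehyde dehydrogenases Aldh1a1, Aldh1a2 and Aldh1a3, the retinoic acid hydroxylase Cyp26b1, the binding proteins Crabp1 and Crabp2, and the receptors Rara, Rarb and Rarg. The DP is a mesenchymal cell cluster in the follicle bulb, and the study asked what the histone deacetylases Hdac1 and Hdac2 do in these cells over the hair cycle. RNA was sequenced from 3 control and 3 double mutant (dM1/2) mice at each of P20 (the first telogen, the resting phase), P24 (early anagen, the growth phase), P28 (mid anagen) and P60 (the second telogen), which gives 24 libraries in 8 groups. The mutants carried Cor-cre/+ with both copies of Hdac1 and of Hdac2 floxed. The controls carried Cor-cre/+ as well, with at least 1 unfloxed copy of Hdac1 or Hdac2 left, and several such genotypes were pooled as control, with no label saying which library had which. The Corin-cre line (FVB) acts in the DP after birth and the other lines were C57BL/6J, and DP cells were marked by a YFP reporter from ROSA26 and sorted in 2 rounds from the skin of each mouse.

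Retinol is oxidised to retinaldehyde by retinol dehydrogenases, and retinaldehyde to retinoic acid by the Aldh1a enzymes. Crabp proteins hold retinoic acid in the cytoplasm, Cyp26 enzymes inactivate it, and the receptors Rara, Rarb and Rarg act on genes as pairs with an Rxr partner, recruiting histone deacetylases through co-repressors when no ligand is bound. In skin, vitamin A excess and deficiency both disturb the hair cycle, and several of the genes of the pathway, such as Rarb and the Cyp26 enzymes, are themselves induced by retinoic acid.

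The targeted genes were looked at first. Hdac1 stood at 674.7, 668.2 and 668.5 normalized reads in the P24 controls and at 209.0, 187.8 and 116.0 in the P24 mutants (log2 fold change −2.01, adjusted p = 0.00167). A normalized read is a read on a gene after division by the size factor of its library. At P20 the controls held 375.0, 511.3 and 504.8 and the mutants 216.0, 369.6 and 270.0, without overlap but past no threshold (−0.72, adjusted p = 0.122), and at P60 the values were 505.9, 359.9 and 375.8 against 371.1, 347.0 and 317.7 (−0.25, adjusted p = 0.986). At P28 the controls were spread over 213.6, 529.0 and 104.7, and the mutants held 190.2, 148.7 and 125.7 (−0.58, adjusted p = 0.454). Without the library labelled P28 control 3 the P28 value was −1.13 (adjusted p = 0.0426) and without P28 control 2 it was 0.03 (adjusted p = 0.958), and the P20 value was −0.87 without P20 control 1 (adjusted p = 0.0413). The change of the Hdac1 effect from P24 to P28 was 1.43 (adjusted p = 0.409). The library labelled P28 control 3 lay below every P28 mutant in Hdac1, against what a control label alone leads to. Some of the pooled control genotypes have both copies of Hdac1 floxed, so this level does not tell whether the label is right, and the library is called by that name below. In the summed DP markers and adipocyte markers it lay with the other P28 controls, at 511514.5 and 381.5 normalized reads, above every P28 mutant. In the fibroblast and endothelial markers described below it lay under every P28 mutant and far under the other controls, at 3876.5 and 420.9, and in the dermal sheath markers, at 3258.4, it lay among the mutants (2061.4 to 4831.9) and under the other controls (6673.7 and 8793.3). Hdac2 passed no threshold at any age, for example with 924.7, 1047.8 and 1068.6 normalized reads in P24 controls and 1157.3, 1223.3 and 1281.7 in P24 mutants (0.27, adjusted p = 0.117). These are reads over the whole gene, and which exons are deleted is not given in the sources used here, so that the level of Hdac2 checks no label.

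Sex and depth went along with the phase of the cycle. Every P20 and P60 library held Xist, at 8113.4 to 26332.8 normalized reads, and Ddx3y at 0.0, whereas P24 and P28 libraries held Xist at 0.0 to 3.9 and Ddx3y at 968.9 to 1738.2. Between 11635062 and 13369732 reads fell on genes at P20 and between 8171944 and 9724000 at P60, against 35469841 to 49331751 at P24 and 37171260 to 48331795 at P28. Phase, sex and depth therefore cannot be told apart in any comparison of anagen with telogen, while genotypes at one age were alike in both. Each library is from a separate mouse. The 12 DP markers listed, led by Vcan, had reads in every library. Their summed level was 372401.0, 403870.0 and 459470.6 normalized reads in P24 controls and 197170.6, 232452.3 and 191151.2 in P24 mutants, and 317171.4, 186151.6 and 511514.5 against 163087.9, 146758.4 and 159346.3 at P28. In telogen the sums were far lower, at 45401.3 to 56188.9 in P20 controls and 56558.4 to 75531.8 in P20 mutants, without overlap, and at 28351.6 to 45567.1 against 22163.2 to 39200.7 at P60. By limma, 7 of the 12 DP markers were lower and 0 higher in mutants at P24, and 5 were lower and 1 higher at P28; at P20 and P60 it called 0 of 12, with 7 at an unadjusted p under 0.05 at each age and medians in opposite directions, 0.52 at P20 and −0.78 at P60.

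The genotypes were compared at each age. In anagen the mutants held less Aldh1a3 and Rarg at both ages, less Crabp1 and more Crabp2 at P24, and less Rarb and about 5 times as much Cyp26b1 at P28. At P24, 4 of the 8 members with enough reads to be tested passed the adjusted threshold of 0.05, beside 26.6% of all 14028 genes tested. Of them 1 was higher, beside 14.8% of all genes, and 3 were lower, beside 11.8%. At P28 it was again 4 of 8, beside 35.5% of 14126 genes, with 1 higher (20.0% of all genes) and 3 lower (15.6%). With so few members these counts do not set the group apart from genes at large. The median log2 fold change of the tested members was −0.36 at P24 and −0.05 at P28, and over all genes tested −0.01 and 0.00. In telogen limma called 0 of 8 members at P20, beside 0.433% of 13845 genes (60 genes, and 0 to 1530 with a library left out, the latter without P20 control 1), and 0 of 9 at P60, beside 0.0% of 14042. At P20, 4 members had an unadjusted p under 0.05, beside 2735 of the 13845 genes. There edgeR called 0 members and 78 genes in all, and DESeq2 called 663 genes in all and 3 members, namely Aldh1a1 (−0.93, adjusted p = 0.0138), Crabp1 (1.06, adjusted p = 0.00177) and Crabp2 (0.98, adjusted p = 0.0031). At P60, 0 members had an unadjusted p under 0.05, beside 525 of the 14042 genes. EdgeR called 0 members and 0 genes in all at P60, and DESeq2 called 0 members and 26 genes in all. Median fold changes of the members were −0.18 at P20 and 0.30 at P60.

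**Figure D1:**
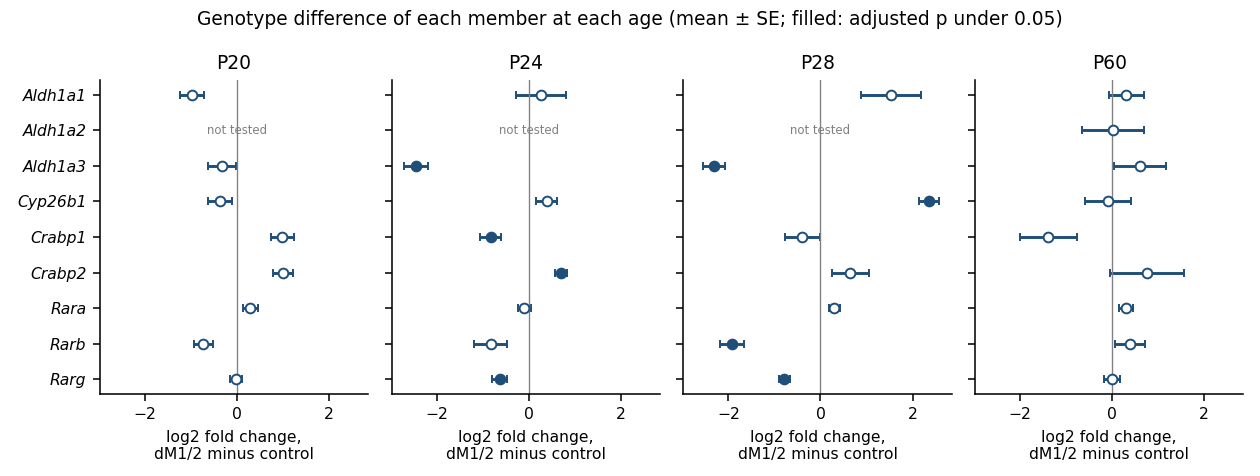
Log2 fold change of each gene between dM1/2 and control at each age, with 3 mice per group; circles are means, bars are ± 1 standard error, and filled circles have an adjusted p under 0.05 in limma. Aldh1a3 and Rarg are filled to the left of 0 at P24 and P28, and Cyp26b1 at P28 lies farthest to the right, at 2.36.

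The size of the genotype effect was then compared between phases, as the mean effect at P24 and P28 minus the mean effect at P20 and P60. This difference passed the threshold for 4 of 8 members, beside 30.2% of 14243 genes. It was −2.52 ± 0.45 (SE) for Aldh1a3 (adjusted p = 0.000375), 1.60 ± 0.38 for Cyp26b1 (adjusted p = 0.00337), −1.20 ± 0.31 for Rarb (adjusted p = 0.00648) and −0.70 ± 0.15 for Rarg (adjusted p = 0.00159). Without P28 control 2, without the library labelled P28 control 3 and without P60 dM1/2 1 these 4 kept their side of the threshold. The other 4 tested members gave 1.23 for Aldh1a1 (adjusted p = 0.116), −0.41 for Crabp1, −0.20 for Crabp2 and −0.19 for Rara. In the same comparison 8 of 12 DP markers (median −1.03), 1 of 5 dermal sheath and 1 of 2 adipocyte markers tested were lower and 0 higher, the direction of Aldh1a3, Rarb and Rarg, and their part was not tested. Without P28 control 2 the value of Aldh1a1 was 1.62 (adjusted p = 0.0148), and without P24 control 1 it was 1.5 (adjusted p = 0.0488).

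Aldh1a3, which oxidises retinaldehyde to retinoic acid, had the widest genotype difference among the synthesis enzymes (ENSMUSG00000015134, chr7:66390890-66427517 on the minus strand of GRCm38). In controls it stood at 200.9, 292.2 and 249.5 normalized reads at P20, at 1891.5, 1241.1 and 1012.3 at P24, at 987.4, 1152.2 and 852.1 at P28, and at 1299.3, 460.0 and 638.6 at P60. In mutants it stood at 222.8, 285.5 and 114.7 at P20, 253.3, 188.5 and 304.4 at P24, 193.2, 270.0 and 146.5 at P28, and 2600.3, 900.1 and 583.6 at P60. Every anagen control lay above every anagen mutant, and the mutants of P24 and P28 lay within or near the range of the P20 libraries of either genotype. The group mean fell from 1381.6 ± 456 in controls to 248.7 ± 58.1 in mutants at P24 (SD, n = 3), a log2 fold change of −2.45 ± 0.26 (SE) or 5.45-fold (adjusted p = 0.00159). At P28 it was 997.2 ± 150.0 against 203.2 ± 62.3, or −2.32 ± 0.24 and 5.0-fold (adjusted p = 0.000857). Without P28 control 2 the P28 value was −2.21 (adjusted p = 0.00154) and without the library labelled P28 control 3 it was −2.43 (adjusted p = 0.000391). The difference at P20 was −0.33 (adjusted p = 0.58). At P60 it was 0.61 (adjusted p = 0.986), and 0.00 without P60 dM1/2 1, the library with 2600.3. The summed DP markers given above were also lower in the mutants of both anagen ages. In bulk RNA, fewer cells of a kind and less RNA per cell cannot be told apart, and the part of the marker shift in these differences was not tested.

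Aldh1a1 encodes another retinaldehyde dehydrogenase (ENSMUSG00000053279, chr19:20492715-20643465, plus strand). Its controls held 715.1, 1171.4 and 831.8 normalized reads at P20, 346.7, 120.5 and 101.2 at P24, 373.2, 1364.8 and 187.7 at P28 and 843.8, 836.5 and 1535.5 at P60. Mutants held 386.6, 358.5 and 669.5 at P20, 110.5, 199.6 and 333.1 at P24, 1602.1, 1136.4 and 1307.1 at P28 and 2272.1, 1040.9 and 882.5 at P60. At P20 all mutants lay below all controls, with a difference of −0.97 ± 0.26 (adjusted p = 0.0996), or −1.12 without P20 control 1 (adjusted p = 0.0358). At P28 all 3 mutants were high, and P28 control 2 was as high as they were while the other controls were not. The P28 difference was 1.54 ± 0.65 (adjusted p = 0.11), 2.33 without P28 control 2 (adjusted p = 0.00212), 0.90 without the library labelled P28 control 3 (adjusted p = 0.158), and its adjusted p was 0.0391 in 1 joint fit of the 24 libraries. The differences at P24 and P60 were 0.26 (adjusted p = 0.76) and 0.31 (adjusted p = 0.986), the latter −0.10 without P60 dM1/2 1.

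Markers of dermal fibroblasts outside the follicle moved with Aldh1a1 in some libraries and against it in others. All 5 such markers, led by Dpt, had reads in every library. Their sum was 34060.3, 53872.7 and 3876.5 normalized reads in the P28 controls, in the order of replicate number, and 10988.3, 16239.5 and 13029.3 in the P28 mutants. P28 control 2 was thus highest in both the fibroblast markers and Aldh1a1 among P28 controls, and it had the lowest sum of DP markers of them, 186151.6. The P28 mutants did not follow this, with high Aldh1a1 at a fibroblast sum below those of P28 controls 1 and 2. P24 control 1 was the highest P24 library in both, with a fibroblast sum of 28652.0 beside 11806.4 and 5490.0 in the other controls and 8146.2 to 11389.7 in the mutants. At P60 the fibroblast sum was 152474.2 in dM1/2 1 and 62236.4 to 80548.1 in the other P60 libraries, and at P20 it was 40057.2, 67368.8 and 51523.0 in controls and 35104.0, 38687.5 and 27354.1 in mutants. Other libraries ran the opposite way. P20 dM1/2 3 had the lowest fibroblast sum of its group, 27354.1, and the highest Aldh1a1, 669.5. P60 control 3 had the lowest sum of its group, 62236.4, and the highest Aldh1a1, 1535.5. P24 dM1/2 1 had the highest sum of its group, 11389.7, and the lowest Aldh1a1, 110.5. Limma called 0 of these 5 markers between genotypes at any age, with 5 at an unadjusted p under 0.05 at P20 and 0 at P24, P28 and P60. Their part in the values of Aldh1a1 was not tested.

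**Figure D2:**
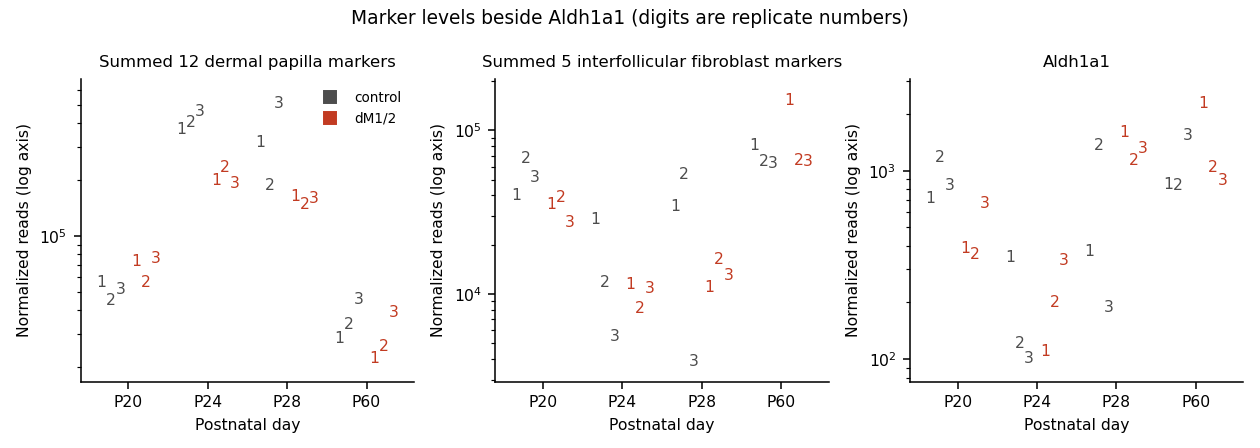
Summed normalized reads of 12 DP markers (left) and 5 interfollicular fibroblast markers (middle) and normalized reads of Aldh1a1 (right) in each library on log axes, by postnatal day; each digit is a library and gives its replicate number, dark for control and red for dM1/2. P28 control 2 and P60 dM1/2 1 are the highest fibroblast sums of their groups, 53872.7 and 152474.2.

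Aldh1a7 is a near-identical paralog of Aldh1a1, and how reads that fit both were counted is not given, so that the level of Aldh1a1 is uncertain where Aldh1a7 is high. It was outside the rule for naming genes and is named here after its values were seen. Aldh1a7 stood at 90.9, 505.9 and 246.1 normalized reads in P28 controls and at 1603.8, 1182.7 and 1545.2 in P28 mutants, with no overlap (2.66 ± 0.56, adjusted p = 0.0111; in 1 joint fit of the 24 libraries adjusted p = 0.0641). At P24 the controls held 36.0, 93.9 and 9.9, and the mutants 16.4, 634.9 and 795.1 (2.61, adjusted p = 0.228). With a library left out the value was 1.64 to 4.40 and the limma adjusted p 0.0181 to 0.513. The 4.40, with 0.0181, came without dM1/2 1. The change of its effect from P24 to P28 was 0.05 (adjusted p = 0.997). In telogen it stayed at 0.0 to 40.6.

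Aldh1a2, which makes retinoic acid in many embryonic tissues, was hardly present (ENSMUSG00000013584, chr9:71215789-71296243, plus strand). It held 0.0 to 17.7 normalized reads over the 24 libraries and passed the filter on low values, a mean of 10, only among the P60 libraries and the telogen controls. At P60 its difference was 0.02 (adjusted p = 0.999) and −0.27 without P60 dM1/2 1 (adjusted p = 0.964), with means of 11.8 ± 4.28 in controls and 13.3 ± 7.46 in mutants. The value of 0.0 came from the library labelled P28 control 3, where a count of 0 allows up to 3 reads or 1.14 normalized reads. Between genotypes at P20, P24 and P28 Aldh1a2 was below the filter and was not tested.

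**Figure D3:**
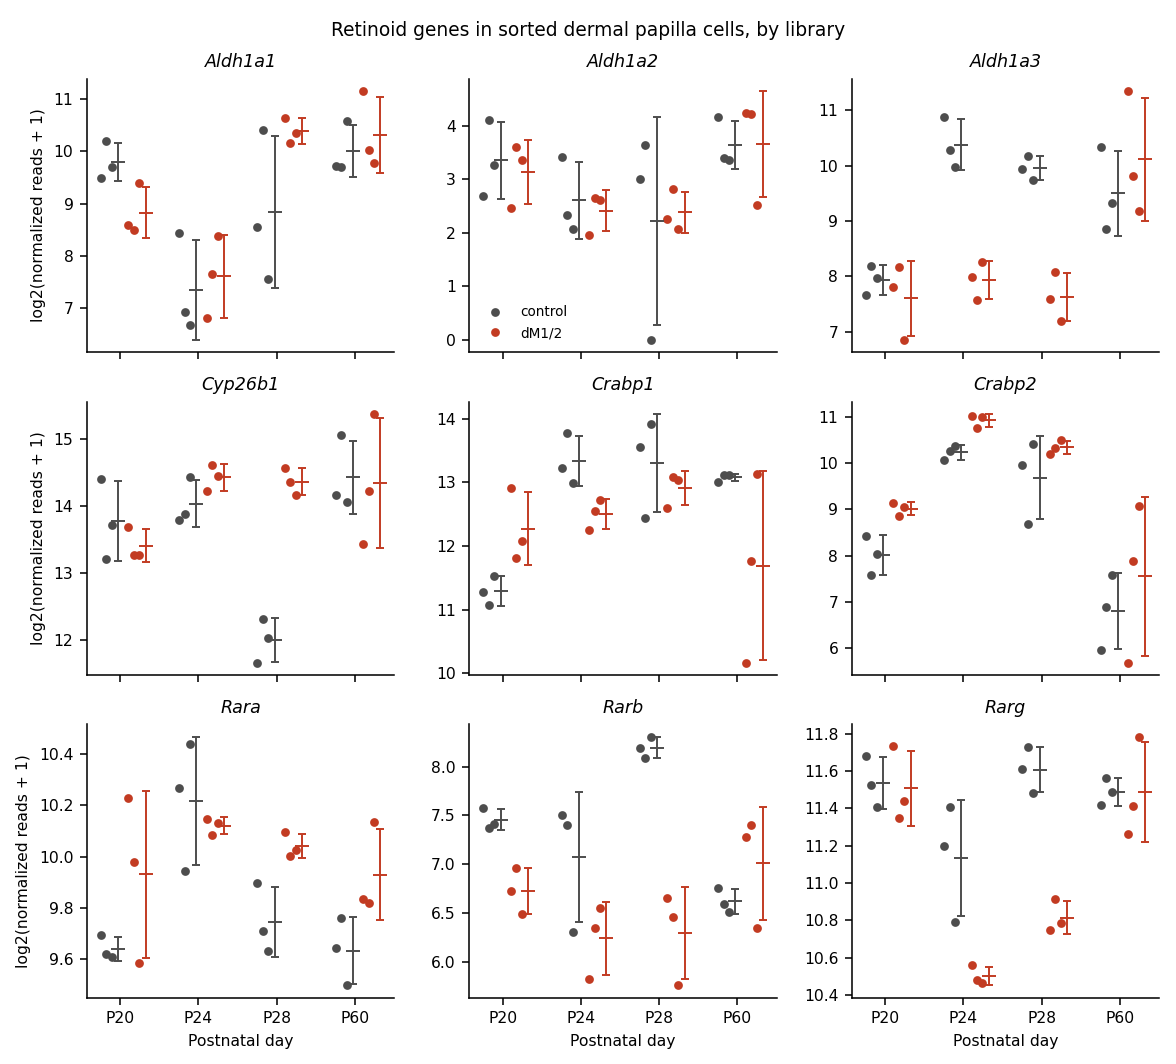
Log2(normalized reads + 1) of each of the 9 genes in every library, by postnatal day; points are mice (dark for control, red for dM1/2) and the bars beside them give the mean ± SD of 3 mice. Cyp26b1 at P28 and Aldh1a3 at P24 and P28 show no overlap between genotypes, and Aldh1a2 stays low throughout, at 17.7 normalized reads or less.

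Cyp26b1 inactivates retinoic acid by hydroxylation (ENSMUSG00000063415, chr6:84571414-84593908, minus strand). In controls it stood at 21662.4, 9485.0 and 13428.6 normalized reads at P20, 14147.3, 15019.6 and 22076.4 at P24, 3246.6, 5085.8 and 4186.0 at P28, and 18414.8, 33883.5 and 17042.7 at P60. In mutants it stood at 13199.8, 9839.5 and 9848.6 at P20, 19001.7, 25016.7 and 22380.5 at P24, 24173.1, 21022.6 and 18246.2 at P28, and 11062.7, 19008.5 and 42267.2 at P60. The 3 P28 controls, the library labelled P28 control 3 among them, were the lowest of all 24 libraries, and the P28 mutants were in the range of P24. The P28 means of 4172.8 ± 920.0 and 21147.3 ± 2970.0 (SD, n = 3) differed by 2.36 ± 0.22 (SE) or 5.12-fold (adjusted p = 0.000632), by 2.51 without P28 control 2 (adjusted p = 0.000529) and by 2.37 without the library labelled P28 control 3 (adjusted p = 0.000354). Differences at P20, P24 and P60 were −0.37 (adjusted p = 0.463), 0.39 (adjusted p = 0.238) and −0.09 (adjusted p = 0.999), the last 0.37 without P60 dM1/2 1 (adjusted p = 0.9).

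The step from early to mid anagen was compared within each genotype. In controls 1 of 8 members passed the threshold, beside 1.46% of 13966 genes (204 genes, and 0 to 67 with a library left out): Cyp26b1 fell by 2.03 on the log2 scale from P24 to P28, a 4.08-fold drop without overlap (adjusted p = 0.0309). In mutants its change was −0.07 (adjusted p = 0.906), and 2 of 8 members passed, beside 2.67% of 14032 genes (375 genes, and 57 to 446 with a library left out). These were Aldh1a1, which rose by 2.77 ± 0.34 with no overlap (adjusted p = 0.00741), and Crabp2, which fell by 0.58 (adjusted p = 0.049, and 0.0588 with the replicate number as a block). In the same step 3 of 12 DP markers were lower in mutants at P28 (median −0.46), beside 1 of 12 in controls (median −0.45), where the adipocyte marker tested gave 2.27 and limma called 0 of 1, with 1 at an unadjusted p under 0.05. In the mutants limma called 0 of 5 fibroblast markers, with 3 at an unadjusted p under 0.05 and a median of 0.44; their part was not tested. The difference between the genotypes in this step was tested too, and 1 of 8 members passed, beside 0.707% of 14139 genes (100 genes, and 8 to 167 with a library left out): Cyp26b1, at 1.96 ± 0.32 (adjusted p = 0.031). For Aldh1a1 it was 1.28 (adjusted p = 0.681), for Rarb −1.08 (adjusted p = 0.396), for Crabp1 0.43 (adjusted p = 0.825) and for Crabp2 −0.04 (adjusted p = 0.992), so that a call of these genes at a single anagen age is not shown to differ from the other age. With a library left out it was 0.64 to 2.07 for Aldh1a1, −1.29 to −0.70 for Rarb and 0.00 to 0.74 for Crabp1, and no call was gained. The Cyp26b1 results are near the threshold. The change in controls had adjusted p-values of 0.0533 to 0.107 with each of the 6 libraries left out in turn, and the difference between genotypes 0.0194 to 0.106 over 12 libraries, with 8 of the 12 above 0.05 (without P24 control 1 or 3 or any 1 of the 6 mutants). With the replicate number as a block the adjusted p was 0.0516 for the change in controls and 0.109 for the difference, and in the joint fit of the 24 libraries the latter was 0.116. Crabp2 in mutants also passed the threshold with no library left out only (0.0516 to 0.21). The size of the Cyp26b1 difference stayed between 1.76 and 2.12. These age comparisons use the same libraries as the genotype comparisons.

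The promoter of Cyp26b1 is shown because the gene had the largest called rise between genotypes among the 9, and because Cyp26 genes are known targets of the retinoic acid receptors. It spans 250 bases before to 50 bases after the start in RefSeq (GRCm38.p6, chr6:84593761-84594060, minus strand, written 5′ to 3′ along the gene). The letters searched, on both strands, were the half-site NGNTCA repeated in the same direction with 5 bases between, where N is any base. These letters are not in this window.

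Cyp26b1 promoter: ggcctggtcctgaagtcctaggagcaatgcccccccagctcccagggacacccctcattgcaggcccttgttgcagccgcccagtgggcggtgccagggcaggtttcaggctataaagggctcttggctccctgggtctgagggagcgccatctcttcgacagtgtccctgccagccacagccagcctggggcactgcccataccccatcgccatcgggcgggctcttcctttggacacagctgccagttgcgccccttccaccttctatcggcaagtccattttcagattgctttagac

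Crabp1 binds retinoic acid in the cytoplasm (ENSMUSG00000032291, chr9:54764748-54773110, plus strand). Controls held 2472.1, 2148.1 and 2959.9 normalized reads at P20, 9606.3, 13975.3 and 8177.9 at P24, 11998.2, 5546.9 and 15486.7 at P28 and 8261.8, 8837.3 and 8839.5 at P60. Mutants held 7724.3, 3591.9 and 4340.8 at P20, 4877.6, 5967.8 and 6727.8 at P24, 6211.0, 8711.7 and 8376.8 at P28 and 1148.7, 3495.0 and 8964.1 at P60. The genotypes did not overlap at P20, where all mutants were above all controls, nor at P24, where all mutants were below; at P28 and P60 they overlapped. At P24 Crabp1 was lower in mutants by −0.83 ± 0.23, or 1.78-fold (adjusted p = 0.032). This call was lost without P24 control 1 or 2 or any of the 3 mutants, with values of −0.61 to −0.94 and adjusted p-values of 0.0566 to 0.107, with the replicate number as a block (adjusted p = 0.0602) and in 1 joint fit of the 24 libraries (adjusted p = 0.237). At P20 the difference was 0.98 ± 0.25 (adjusted p = 0.0995, and 0.039 with the replicate number as a block), beside a higher sum of DP markers in the P20 mutants, whose part was not tested; at P24 that sum was lower in mutants. At P28 the Crabp1 difference was −0.40 (adjusted p = 0.465), −0.83 without P28 control 2 (adjusted p = 0.0308) and −0.09 without the library labelled P28 control 3 (adjusted p = 0.85). The P60 value was −1.39 (adjusted p = 0.986), and −2.11 to −0.63 with a library left out. The value of −0.63 came without dM1/2 1, the library with the high fibroblast sum.

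Crabp2 delivers retinoic acid to the receptors and is itself known to be induced by it in skin (ENSMUSG00000004885, chr3:87948666-87953376, plus strand). Controls held 345.5, 189.4 and 261.0 normalized reads at P20, 1071.7, 1228.0 and 1327.4 at P24, 1000.0, 411.8 and 1364.1 at P28 and 60.9, 116.8 and 191.4 at P60. Mutants held 566.2, 462.5 and 529.0 at P20, 2071.4, 1743.1 and 2039.9 at P24, 1183.3, 1283.8 and 1442.4 at P28 and 50.5, 236.3 and 541.3 at P60. The mutants were above every control at P20 and P24. At P28 they overlapped with the library labelled P28 control 3, and at P60 they were spread on both sides of the controls. Crabp2 rose in mutants at P24 by 0.69 ± 0.13, or 1.61-fold (adjusted p = 0.00859), with values of 0.61 to 0.77 and adjusted p-values up to 0.0381 with each library left out in turn, while the joint fit of the 24 libraries gave an adjusted p of 0.418. At P20, where the summed DP markers were higher in mutants too, the difference was 1.0 ± 0.21 (adjusted p = 0.0698, and 0.0278 with the replicate number as a block), or 1.21 without P20 control 1 (adjusted p = 0.0144). At P28 it was 0.65 (adjusted p = 0.259), 0.15 without P28 control 2 (adjusted p = 0.535) and 1.02 without the library labelled P28 control 3 (adjusted p = 0.0405). At P60 it was 0.75 (adjusted p = 0.986), 1.68 without dM1/2 1 (adjusted p = 0.535) and −0.02 without dM1/2 3 (adjusted p = 0.998).

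Rarg, the receptor with the most reads per kb of exon in these cells, was lower in mutants at both anagen ages (ENSMUSG00000001288, chr15:102234938-102257517, minus strand). Controls held 3283.6, 2943.4 and 2713.2 normalized reads at P20, 2351.6, 2713.1 and 1773.6 at P24, 3130.5, 3389.2 and 2864.3 at P28 and 2732.9, 3022.0 and 2868.1 at P60. Mutants held 3408.5, 2609.3 and 2772.4 at P20, 1509.1, 1427.4 and 1414.6 at P24, 1717.2, 1929.6 and 1763.6 at P28 and 2456.4, 2725.6 and 3525.4 at P60. The 6 anagen mutants were below every anagen control of their age, and the telogen genotypes overlapped. The difference at P28 was −0.79 ± 0.12, or 1.73-fold (adjusted p = 0.00322), −0.73 without P28 control 2 (adjusted p = 0.00618) and −0.85 without the library labelled P28 control 3 (adjusted p = 0.00204). At P24 it was −0.63 ± 0.16, or 1.55-fold (adjusted p = 0.0272), and this call was lost without P24 control 1 or 2 or any of the 3 mutants, with values of −0.49 to −0.66 and adjusted p-values of 0.0683 to 0.0922, and with the replicate number as a block (adjusted p = 0.0541). At P20 and P60 the values were −0.03 (adjusted p = 0.921) and 0.00 (adjusted p = 0.999), the latter 0.11 without P60 dM1/2 1 (adjusted p = 0.927).

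Rarb is a receptor whose own gene is a textbook target of retinoic acid (ENSMUSG00000017491, chr14:16430839-16819156, minus strand). Its promoter is shown because it is the only one of a member that holds the letters searched for. The capitals mark the match, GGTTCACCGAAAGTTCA, from 53 to 37 bases before the start. The window is from RefSeq (GRCm38.p6, chr14:16575427-16575726, minus strand, 5′ to 3′ along the gene), and spans 250 bases before to 50 bases after the start.

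Rarb promoter: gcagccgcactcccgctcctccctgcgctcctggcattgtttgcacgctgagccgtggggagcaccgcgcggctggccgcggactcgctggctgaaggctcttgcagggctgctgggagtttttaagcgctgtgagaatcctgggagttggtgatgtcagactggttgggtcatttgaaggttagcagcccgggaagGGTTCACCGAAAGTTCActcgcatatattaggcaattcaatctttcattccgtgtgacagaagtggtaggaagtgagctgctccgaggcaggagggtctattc

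Over all promoters in RefSeq, 283 of 32851 windows of this length, or 0.861%, hold these letters on either strand. A window was given for 7 of the 9 members (12 windows), all but Aldh1a3 and Crabp2, and 1 of the 7 held a match, Rarb. Of the other listed pathway and target genes, 31 had a window (45 in all) and 1 held a match, Cyp26a1, from 32 to 16 bases before its start (chr19:37697558-37697857, plus strand). A match is a description of the sequence only.

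Rarb was low and lowest in mutants in anagen. Controls held 190.2, 165.0 and 169.2 normalized reads at P20, 180.3, 168.7 and 78.2 at P24, 291.9, 271.5 and 315.9 at P28 and 107.1, 95.3 and 89.9 at P60. Mutants held 104.6, 123.9 and 88.8 at P20, 55.6, 80.4 and 92.7 at P24, 99.8, 86.6 and 53.0 at P28 and 154.0, 168.5 and 80.0 at P60. The P28 controls were the highest of all libraries, and every P28 mutant was well below the lowest of them, 271.5. The P28 means of 293.1 ± 22.2 and 79.8 ± 24.1 (SD, n = 3) differed by −1.91 ± 0.26 (SE), or 3.76-fold (adjusted p = 0.00205), by −1.96 without P28 control 2 (adjusted p = 0.00357) and by −1.85 without the library labelled P28 control 3 (adjusted p = 0.00222). At P24 the difference was −0.83 ± 0.36 (adjusted p = 0.128), and −1.21 without P24 control 3 (adjusted p = 0.013). At P20 the genotypes did not overlap either (−0.73 ± 0.20, adjusted p = 0.104), and at P60 the value was 0.39 (adjusted p = 0.986), or 0.26 without dM1/2 1 (adjusted p = 0.917). Exons of Rarb overlap exons of Top2b and of the predicted gene Gm48162 on the other strand. The library kit keeps the strand, but the strand setting of the counting is not given in the sources used here, so that reads of Rarb and of these genes cannot be told apart. Top2b held 3920.0 ± 409 normalized reads in P28 controls and 3065.0 ± 183 in P28 mutants, and 5192.3 ± 123 against 3161.6 ± 144 at P24 (SD, n = 3). In telogen it held 2630.0 ± 74.4 against 2604.1 ± 155 at P20 and 2646.2 ± 181 against 2581.1 ± 115 at P60.

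Rara was the steadiest of the receptors (ENSMUSG00000037992, chr11:98927818-98974942, plus strand). It held 721.6 to 1387.4 normalized reads over the 24 libraries, and its group means spanned 0.58 on the log2 scale. The genotypes did not overlap at P28, with 951.3, 835.1 and 791.5 in controls and 1092.1, 1025.0 and 1042.2 in mutants (0.30 ± 0.12, adjusted p = 0.0893), nor at P60 (0.30, adjusted p = 0.986). At P20 and P24 the differences were 0.29 (adjusted p = 0.346) and −0.10 (adjusted p = 0.669).

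Levels of different genes were compared per kb of exon, as normalized reads divided by the summed exon length in kb. Among the 3 Aldh1a genes on this scale, Aldh1a3 made up 84.6%, 91.1% and 90.9% in P24 controls and 69.9%, 48.8% and 48.6% in P24 mutants. At P28 its share was 73.1%, 47.0% and 82.9% in controls and 11.4%, 20.1% and 10.7% in mutants, where Aldh1a1 made up most of the rest. The groups did not overlap at either age, and P28 control 2 had the lowest control share. In P20 controls the share was 22.4% ± 1.69 (SD, n = 3). The summed level of the Aldh1a genes was 340.0 ± 128 normalized reads per kb in P24 controls and 99.3 ± 31.6 in P24 mutants, and 349 ± 162 against 319 ± 42.5 at P28. The ratio of Cyp26b1 to this sum, on the same scale, was 5.46, 9.51 and 17.1 in P24 controls and 45.2, 55.9 and 30.8 in P24 mutants, and 2.07, 1.79 and 3.51 against 12.3, 13.5 and 11.4 at P28. Mutants lay above controls at both ages, and in telogen the groups overlapped. These shares and ratios are descriptions and were not tested, and they carry the doubt about Aldh1a7, which was high in all P28 mutants and in P24 dM1/2 2 and 3, the P24 libraries with the lowest Aldh1a3 shares.

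**Figure D4:**
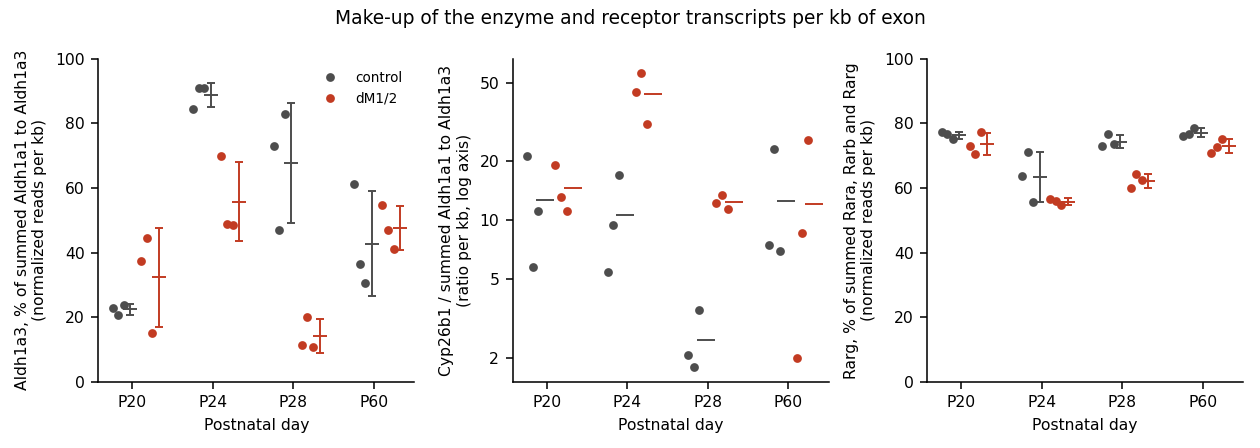
Share of Aldh1a3 in the summed Aldh1a1 to Aldh1a3 (left), ratio of Cyp26b1 to that sum on a log axis (middle) and share of Rarg in the summed receptors (right), all from normalized reads per kb of exon, by postnatal day; points are mice (dark for control, red for dM1/2), with mean ± SD of 3 mice in the outer panels and the mean in the middle. At P28 the Cyp26b1 ratio is 1.79 to 3.51 in controls and 11.4 to 13.5 in mutants.

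The receptors kept their order per kb in every group, Rarg over Rara over Rarb. Rarg made up 74.4% ± 1.98 of the 3 receptors in P28 controls and 62.2% ± 2.19 in P28 mutants, with no overlap, and 63.4% ± 7.81 against 55.8% ± 1.02 at P24, where the groups overlapped (SD, n = 3). At P60 the shares of 76.0% to 78.7% in controls and 70.8% to 75.2% in mutants did not overlap either. The share of Rarb was 5.68% ± 0.815 in P28 controls and 2.22% ± 0.657 in P28 mutants, and 1.38% to 3.94% in the other libraries. Crabp1 exceeded Crabp2 per kb in every library. The ratio of the pair was 14.6 ± 4.31 in P24 controls and 4.99 ± 0.963 in P24 mutants, and 20.2 ± 1.79 against 9.80 ± 1.28 at P28 (SD, n = 3), and the groups did not overlap at either age. At P60 the ratio was 142 ± 75.2 in controls and 29.7 ± 6.89 in mutants, also without overlap, and at P20 the groups overlapped. Of the 9 genes Crabp1 was the highest per kb in every group, at 13200.0 in P24 controls, and Aldh1a2 the lowest, at 1.92 to 5.89.

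Other cell types were checked by their markers. Keratinocyte markers of the follicle and epidermis, led by Trp63, summed to 115.6 to 804.9 normalized reads with 8 to 10 of 10 having reads, and those of hair shaft and root sheath, led by Tchh, to 31.3 to 141.2 with 1 to 6 of 6. Melanocyte markers, led by Tyr, summed to 26.7 to 206.2 (2 to 5 of 5) and immune markers, led by Lyz2, to 59.1 to 718.5 (3 to 5 of 5). Endothelial markers, led by Tek, were all 5 present and summed to 420.9 to 6162.5, the highest in P60 dM1/2 1, which also had the highest fibroblast sum and the lowest Crabp1 of the P60 mutants. Markers of dermal sheath and smooth muscle, led by Acta2, were all 5 present and summed to 2061.4 to 9845.6. Of the adipocyte markers, led by Plin1, 1 to 3 of 3 had reads. They moved with genotype at P24, at 39.7 to 91.7 normalized reads in controls and 10.1 to 27.3 in mutants, and at P28, at 322.7, 126.8 and 381.5 in controls and 17.1, 11.1 and 19.3 in mutants, and Plin1, the only gene of them tested there, was lower in mutants at both ages (median of the list −1.54 and −3.98). Of the other lists in this paragraph, 2 of 7 tested keratinocyte, 1 of 5 endothelial, 1 of 3 immune and 1 of 5 dermal sheath markers were lower in mutants at P24, and 1 of 5 dermal sheath markers at P28. These drops run beside those of Aldh1a3 and Rarg at both ages, Crabp1 at P24 and Rarb at P28, and their part in them was not tested. No marker of these lists was at 0 in every library.

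Within controls, anagen was compared with telogen, with sex and depth changing along with the phase. Of 8 members 7 passed the threshold, beside 45.6% of 14066 genes. Crabp2 was higher in anagen by 2.55 ± 0.32 (5.87-fold, adjusted p = 0.000154), Aldh1a3 by 1.45 ± 0.24 (adjusted p = 0.000793), Crabp1 by 1.13 (adjusted p = 0.00247), Rarb by 0.60 (adjusted p = 0.0242) and Rara by 0.34 (adjusted p = 0.014). Aldh1a1 was lower, at −1.81 ± 0.45 (adjusted p = 0.00779), and so was Cyp26b1, at −1.08 (adjusted p = 0.00432), whose P24 controls nevertheless lay among the telogen values. Rarg gave −0.14 (adjusted p = 0.301). The control means of Rarb were 142.4 at P24 and 293.1 at P28, beside 174.8 at P20 and 97.4 at P60, so that P24 lay below P20. The call of Rarb was lost without P24 control 1, P24 control 2 or P60 control 3, at 0.49 to 0.57 and adjusted p-values of 0.0508 to 0.0623. All 12 DP markers were higher in anagen, and 4 of 5 fibroblast, 2 of 5 dermal sheath, 1 of 5 endothelial, 1 of 7 keratinocyte and 1 of 3 melanocyte markers tested were lower, with 1 of 2 adipocyte markers higher. Crabp2, Aldh1a3, Crabp1, Rarb and Rara thus moved in the direction of the DP and adipocyte markers, and Aldh1a1 and Cyp26b1 in that of the other lists, and the part of these shifts was not tested.

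Both telogens were compared in controls as well, where library sex and phase were alike, while age differed and the reads on genes did not overlap (11766916 to 13369732 at P20 and 8843748 to 9512720 at P60). Of 9 members 3 passed, beside 12.6% of 13900 genes (1746 genes, and 527 to 2796 with a library left out). Crabp1 was higher at P60 than at P20 by 1.79 ± 0.14 (3.45-fold, adjusted p = 0.000211) and Aldh1a3 by 1.56 ± 0.33 (adjusted p = 0.0161), and Rarb was lower, at −0.84 ± 0.20 (adjusted p = 0.0259), each without overlap. Aldh1a3 missed the threshold without P20 control 3 (1.58, adjusted p = 0.0602). Rarb missed it without P20 control 2 or 3 or P60 control 2 or 3 (adjusted p = 0.0568 to 0.0969), with the replicate number as a block (adjusted p = 0.0663) and in 1 joint fit of the 24 libraries (adjusted p = 0.08). Crabp2 gave −1.21 (adjusted p = 0.0673), and −1.60 without P60 control 3 (adjusted p = 0.0324). Of 12 DP markers 3 were lower and 1 higher at P60, and 1 each of 5 fibroblast, 5 endothelial, 3 immune and 7 keratinocyte markers tested was higher. The part of age, depth and these markers was not tested.

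Other genes of the pathway were taken from a list of 34, among them carriers, retinol and retinaldehyde oxidoreductases, the remaining Cyp26 genes and the Rxr partners. At P24, 20 had enough reads to be tested, of which 1 was higher in mutants, 4 were lower and 15 passed no threshold, with a median of −0.26. At P28 it was 3 higher, 5 lower and 13 not called of 21, with a median of −0.18, and all genes are given above for comparison. Limma called 0 of 22 at P20 (5 at an unadjusted p under 0.05) and 0 of 24 at P60 (0 at an unadjusted p under 0.05). Rdh10, the retinol dehydrogenase that supplies retinaldehyde in many tissues, rose from 299.6 to 571.7 normalized reads on average at P24 (0.93 ± 0.15, adjusted p = 0.00485) and from 277.8 to 1020.4 at P28 (1.93 ± 0.30, adjusted p = 0.00338). Dhrs3, which reduces retinaldehyde back to retinol and is induced by retinoic acid, fell by 1.31 on the log2 scale at P24 (adjusted p = 0.00332) and by 0.95 at P28 (adjusted p = 0.0187). The P28 call of Dhrs3 was lost without P28 control 1 (adjusted p = 0.07) and without dM1/2 1 (adjusted p = 0.0518). Other oxidoreductases were also lower at both ages, Rdh14 at −1.34 and −1.48 (adjusted p = 0.00709 and 0.00246) and Dhrs4 at −1.21 and −0.90 (adjusted p = 0.0041 and 0.00865). The receptor partner Rxra fell from 4396.2 to 2289.2 at P24 (−0.94 ± 0.12, adjusted p = 0.00239) and from 3689.2 to 2059.2 at P28 (−0.84 ± 0.14, adjusted p = 0.00481). Retsat, a retinol saturase, was lower at P28 (−0.60, adjusted p = 0.0149), a call lost without 3 of the 6 libraries in turn, up to an adjusted p of 0.0639. Its effect at P24 was −0.37 (adjusted p = 0.0584), and the change of the effect between these ages −0.22 (adjusted p = 0.672). Of the 12 DP markers 7 were lower in mutants at P24, and 5 were lower and 1 higher at P28. The adipocyte marker tested was lower at both ages, and the part of these markers in the drops of pathway genes was not tested. The last 2 called genes at P28, Adh5 (0.52, adjusted p = 0.0484) and Rdh13 (0.48, adjusted p = 0.0259), are outside the rule for naming genes and were named after their values were seen; their calls were lost without 4 and 5 of the 6 libraries, and their effects changed from P24 to P28 by 0.24 (adjusted p = 0.777) and 0.30 (adjusted p = 0.649).

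**Figure D5:**
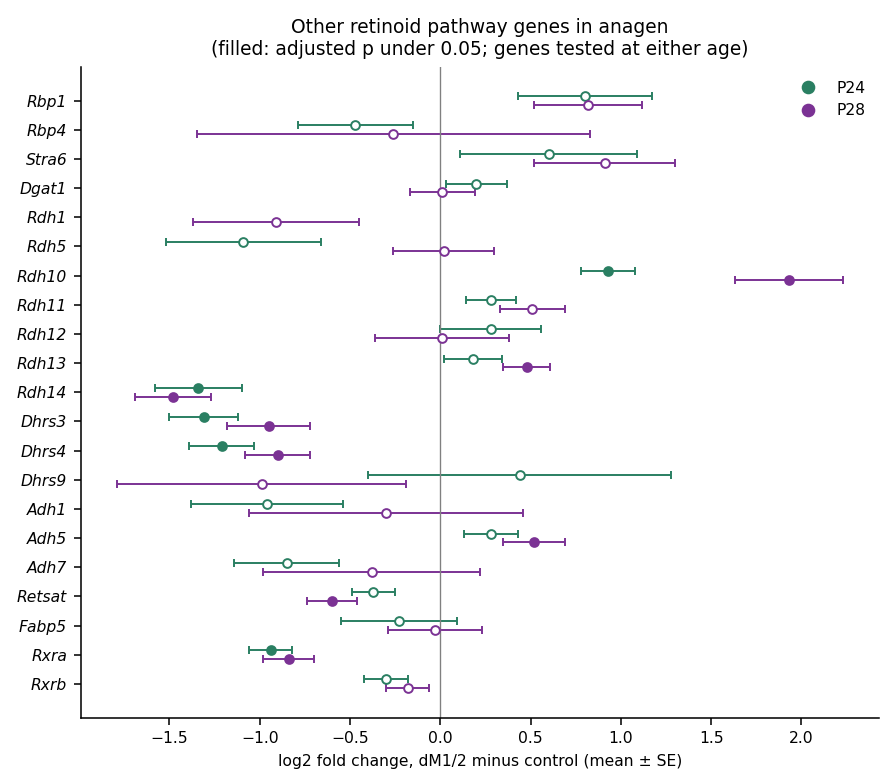
Log2 fold change between dM1/2 and control of the listed pathway genes with enough reads to be tested at P24 (green) or P28 (purple), 3 mice per group; circles are means, bars are ± 1 standard error, and filled circles have an adjusted p under 0.05 in limma. Rdh10 lies farthest to the right at both ages, at 0.93 and 1.93, and Rdh14 farthest to the left, at −1.34 and −1.48.

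The genotype effect on 7 of the 23 pathway genes tested differed between anagen and telogen, 2 toward higher and 5 toward lower in anagen mutants, a share close to the 30.2% of all genes. Among them were Rdh10 (1.5, adjusted p = 9.5e-05), Dhrs3 (−1.20, adjusted p = 0.00121), Rdh14 (−1.18, adjusted p = 0.00225), Dhrs4 (−1.02, adjusted p = 0.00946) and Rxra (−0.86, adjusted p = 0.0002). In the same comparison 8 of 12 DP markers were lower and 0 higher, and their part was not tested. Rbp2 was at 0.0 in every library, and Cyp26a1 and Cyp26c1 had group means of 0.0 to 5.4 normalized reads, so that Cyp26b1 carried nearly all Cyp26 reads in these cells. Of 13 textbook targets of retinoic acid, 3 of which are members, 11 were tested at P24, with Crabp2 higher, Dhrs3 lower and 9 not called, beside the 26.6% called of all genes. At P28, 10 were tested, with Cyp26b1 higher, Rarb and Dhrs3 lower and 7 not called, beside 35.5% of all genes. Limma called 0 of 10 targets at P20 and 0 of 11 at P60, with 4 and 0 at an unadjusted p under 0.05.

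Genes with a pattern over the 8 groups most like that of a member were ranked by the root mean square difference of their centred log2 group means, for members whose group means spanned at least 1. Aldh1a2, which was below the filter over the 24 libraries, was not ranked. Nearest to Cyp26b1 were Pttg1 (0.26), Cd40 (0.26) and Susd5 (0.29), and nearest to Aldh1a3 were Plcxd3 (0.45), Hvcn1 (0.51) and Atp6v1g2 (0.52). Aldh1a1 was nearest to Il31ra (0.45), Ephx1 (0.47) and Trpm6 (0.49). For the binding proteins they were Zfp14 (0.27), Tceal1 (0.32) and Rfesd (0.33) with Crabp1, and Zfp853 (0.32), Csdc2 (0.33) and Adamts7 (0.35) with Crabp2. Rarb was followed most closely by Fstl1 (0.13), Fam120aos (0.20) and Cald1 (0.21), and Rarg by Irak1 (0.10), Wbp2 (0.10) and Galnt7 (0.11).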

How the data were processed

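RNA from sorted DP cells was depleted of ribosomal RNA and made into directional libraries. Per the labels and the study's methods, the authors used Trimmomatic for trimming and TopHat2 for alignment to mm10. They counted reads per gene with HTSeq and normalized the counts with DESeq2, so the deposited values are a normalized read signal. The size factors were taken here to span all 24 libraries. Whole reads were recovered from 100.0% of the values within 0.01 reads.

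Groups came from the sample labels. The main test was limma 3.58.1 in R 4.3.3, with a trend and two-sided, on log2(normalized reads + 1), so that fold changes are on that scale and understate changes of low genes. Genes with a mean of at least 10 over the libraries of a fit were tested, with Benjamini-Hochberg adjustment over all of them at 0.05. The design named limma as the main test for normalized values, and edgeR in its place had the values been raw counts. Alternatives were a pseudocount of 10, no filter, edgeR 4.0.16 and DESeq2 1.42.0 on recovered reads, the replicate number as a block, 1 joint fit of the 24 libraries, and leaving out every library singly. Counting limits for a count of 0 take 3 reads and cover counting error only. Identifiers of 25508 genes matched GENCODE M21, which gave positions and exon lengths.

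Named genes were all 9 members, Hdac1, Hdac2, Xist and Ddx3y; of the pathway and target lists, up to 6 called genes with the largest change at P24 and at P28 and any called at P20 or P60; of each marker list the most abundant gene and any at 0; and the 3 genes nearest in pattern to each member. The result of 1 marker list is not reported here. Members and lists were chosen with earlier results of these data known.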

Additional observations from a re-analysis of the deposited data

Results flagged for a closer look

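Several differences between effects stood out. The genotype effect differed by test between anagen and telogen, as the mean at P24 and P28 minus the mean at P20 and P60, by −2.52 for Aldh1a3 (adjusted p = 0.000375), 1.60 for Cyp26b1 (adjusted p = 0.00337), −1.20 for Rarb (adjusted p = 0.00648) and −0.70 for Rarg (adjusted p = 0.00159). In that comparison 8 of 12 DP markers were lower as well (median −1.03), and their part was not tested. The change of Cyp26b1 from P24 to P28 differed between genotypes by 1.96 (adjusted p = 0.031), a call lost for Cyp26b1 with the replicate number as a block (adjusted p = 0.109), in the joint fit of the 24 libraries (adjusted p = 0.116) and without 8 of 12 libraries in turn (0.0194 to 0.106 over the 12). For Crabp1 every mutant was above every control at P20 and below every control at P24, and the effect at P24 was −1.81 relative to that at P20 on the log2 scale; this difference was not tested. The P24 call of Crabp1 was lost without 5 of the 6 libraries in turn. The summed DP markers went the same way, from means of 51117.1 in controls and 68400.6 in mutants at P20 to 411913.9 and 206924.7 at P24. The groups did not overlap at either age, but at P20 the highest control, 56188.9, and the lowest mutant, 56558.4, nearly met. Limma called 0 of the 12 DP markers at P20, and their part was not tested.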

How the results depend on the processing

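Of the 82 fold changes of members compared over the settings, 641 values with a library left out and 454 under the other settings kept their direction and side of the threshold, 38 and 12 lost a call, 9 and 12 gained a call and 42 and 4 changed sign. The count of members called moved at P20 from 0 to 3 with DESeq2, 2 with the replicate block and 0 to 2 with a library left out; at P24 from 4 to 2 with the replicate block, 2 in the joint fit and 2 to 5 with a library left out. It was 4 to 6 at P28 and 0 at P60 with a library left out. For the step from P24 to P28, controls moved from 1 to 2 with DESeq2, 0 with the block, 4 in the joint fit and 0 with any library left out; mutants from 2 to 3 with DESeq2 (Rarg, 0.31, adjusted p = 0.0403) and to 1 without the filter, with the block, in the joint fit and with any library left out; and their difference from 1 to 0 with the block and in the joint fit and 0 to 1 with a library left out. From P20 to P60 in controls it was 1 to 3 and from telogen to anagen 6 to 7 with a library left out. No label says whether mice of the same replicate number were paired, and the main test did not pair them. In deviations from group means, same-numbered libraries correlated at 0.23, 0.08 and 0.12 at P20 and −0.18, 0.04 and −0.40 at P24. The values were −0.15, 0.03 and −0.23 at P28 and 0.34, 0.02 and 0.17 at P60. These correlations do not settle whether the mice were paired. At P20 every library correlated best with its own number, a hint from the data only. With the block, all genes called went from 60 to 439 at P20, 3735 to 2366 at P24 and 0 to 6 at P60. Over all genes DESeq2 called 663 at P20 and 26 at P60, and the joint fit 23 and 19. Signs changed only for uncalled values, with these ranges when a library was left out: at P20 Rarg −0.14 to 0.05 and Aldh1a3 −0.61 to 0.04; at P24 Aldh1a1 −0.12 to 0.81 and Rara −0.23 to 0.02; at P28 Hdac1 −1.13 to 0.03; at P60 Aldh1a1 −0.10 to 0.60, Aldh1a2 −0.27 to 0.59, Aldh1a3 0.00 to 1.08, Cyp26b1 −0.60 to 0.37 (0.04 with edgeR, 0.05 with DESeq2), Crabp2 −0.02 to 1.68 and Rarg −0.15 to 0.11; for the effect in anagen minus telogen Crabp2 −0.67 to 0.18; from P24 to P28 Crabp1 −0.34 to 0.40 in controls (0.06 with edgeR, 0.07 with DESeq2), Rarb −0.16 to 0.31 and Cyp26b1 −0.17 to 0.04 in mutants, and Aldh1a3 −0.13 to 0.34, Crabp2 −0.54 to 0.32 and Rarg −0.30 to 0.01 for their difference; from P20 to P60 in controls Aldh1a1 −0.08 to 0.41, Aldh1a2 −0.05 to 0.43, Rara −0.07 to 0.06 and Rarg −0.11 to 0.02. The cause was not tested. With a library left out, all genes called were 0 to 1530 at P20, 2057 to 4012 at P24, 3043 to 5788 (from 5018) at P28 and 0 to 2 at P60; for the step from P24 to P28 0 to 67 in controls (from 204; 1494 with DESeq2, 27 with the block, 1313 in the joint fit), 57 to 446 in mutants (from 375; 1127 with DESeq2, 78 in the joint fit) and 8 to 167 for their difference (from 100; 151 with a pseudocount of 10, 595 with DESeq2, 0 with the block); and 527 to 2796 from P20 to P60 in controls (from 1746; 923 with the block). The block ended the P24 calls of Crabp1 (0.0602) and Rarg (0.0541) and made calls of Crabp1 (0.039) and Crabp2 (0.0278) at P20.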
